A study of Tripsacum dactyloides with 133 samples.

Results

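Crown roots of 32 eastern gamagrass plants (Tripsacum dactyloides, cultivar Pete, a perennial prairie grass related to maize) were examined for their transcriptional response to acute drought after inoculation with soil microbiota from 1 Kansas site, the Clinton Wildlife Reserve (CWR). The plants were chosen by label alone, as every library of the series whose inoculum name begins with CWR_, which gave 32 libraries. The rest of the series was made up of 93 libraries with inocula from 3 other sites (29 from WEL and 32 each from SVR and TRI) and 8 from mock-inoculated plants. CWR and WEL are high-precipitation sites according to the study, and SVR and TRI are low-precipitation sites.

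All 32 plants received live microbes. Before the plants were inoculated, CWR soil had been conditioned for months in pots with gamagrass (G) or without a host (N), and either well-watered (W) or drought-stressed (D). The resulting inocula are named CWR_G_W, CWR_G_D, CWR_N_W and CWR_N_D. Each was given to 4 plants that were then droughted and 4 that were kept well-watered, so that drought and control groups held 16 plants each. All plants grew in sterilised sand and clay in growth chambers, and 1 crown root per plant was sampled. Extracts of individual conditioning pots could be given to more than 1 plant, and the labels do not say which plants shared an extract, so plants of 1 inoculum are not fully independent samples of that inoculum.

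Crown roots arise from the shoot base and take up much of a grass plant's water. In drying soil, roots of grasses accumulate abscisic acid (ABA), whose receptors release a kinase cascade that changes transcription of genes for solute synthesis, protective proteins, water channels and cell walls. Ethylene acts beside ABA through transcription factors of the ethylene response family. Root-associated microbes can alter both hormone pathways and induce defence genes such as those for pathogenesis-related proteins and peroxidases.

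The libraries differed in depth between the water treatments. The total count ranged from 21.3 to 60.4 M counts (M, 1e6, median 51.1 M) in droughted plants and from 9.06 to 61.3 M (median 22.6 M) in well-watered plants. Of the droughted plants 15 of 16 reached 30 M counts, against 5 of 16 well-watered plants. By label, droughted plants ran from plantID_193 to plantID_388 and well-watered plants from plantID_400 to plantID_480, so plant number and water treatment cannot be told apart. No single gene took more than 0.80% of a library. Between any 2 CWR libraries, log2(CPM + 1), with CPM the counts per 1e6 counts of a library, correlated across genes at 0.797 to 0.953. Tissue identity could not be checked against marker genes, because neither the count table nor the orthologue table gives gene names or functions. Genes are therefore given by identifier, and by function only where the study text annotates them or their maize orthologue.

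Drought changed 2309 of 35637 tested genes in CWR plants. Transcripts of 1337 genes were higher in droughted plants and those of 972 were lower (DESeq2, Benjamini-Hochberg adjusted p under 0.05, 16 against 16 plants). These were 6.48% of the tested genes, 3.75% higher and 2.73% lower. Called genes changed by a median of 0.99 on the log2 scale, whichever the direction. Of the called genes, 1148 changed at least 2-fold, 492 at least 4-fold and 731 less than 1.5-fold. The direction was the same in each of the 4 inocula for 2014 of the 2309 genes (87.2%). The balance of directions depended on the processing, since 57.9% of the calls were higher here, 65.2% with TMM size factors (1584 higher and 844 lower) and 51.3% with 2 surrogate variables (1272 higher and 1208 lower). edgeR's quasi-likelihood test called fewer genes, 989 of 33081 tested (2.99%, with 651 higher, or 1.97%, and 338 lower, or 1.02%), and DESeq2 called 975 of them with the same sign.

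No tested gene separated the treatments completely. In none of the 35637 genes did all 16 droughted plants lie above, or all 16 lie below, all 16 well-watered plants (0% in each direction). For 633 called genes (27.4%), more than 50% of all normalised counts came from 5 of the 32 plants. Such genes made up 31.6% of the calls higher under drought and 21.6% of the calls lower under drought. The fitted log2 fold change lay beyond 10 in 5 called genes, and 5 called genes had a count of 0 in every well-watered plant. Fitted values of that size depend on the zeros and do not measure a fold.

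Among the called genes, highly expressed ones rose more often than they fell, and weakly expressed ones did the reverse. When the tested genes were split into 5 equal classes of mean normalised count, 69.7% of the 636 called genes in the highest class rose, against 39.6% of those in the lowest class. The share called was 8.92% in the highest and 3.58% in the lowest class. Called genes of these classes changed by a median of 0.51 and 2.06 on the log2 scale, either way. Smaller changes reached the threshold where counts were high, so shares called are not compared between classes as a property of the genes. The split was made in the main DESeq2 fit alone, and the balance of directions depended on the processing. Its dependence on library depth was not tested.

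Td00002ba034236 rose most among the genes that met the fixed rule for naming (called, mean normalised count of at least 50, the same direction in all 4 inocula, and no more than 50% of counts in 5 plants). This gene lies on chromosome 11 (115094086 to 115105518, plus strand) and the deposited orthologue table pairs it with the maize gene Zm00001eb244270. Its normalised count was 231.9 to 8016 in droughted plants (median 3332) and 0 to 2234 in well-watered plants (median 49.6). The groups overlapped in few plants, since 14 of 16 well-watered plants lay below every droughted plant. The high well-watered values were those of replicate 14, inoculated with CWR_G_D, at 2234, and of a plant inoculated with CWR_G_W at 1933. The log2 fold change was 4.15 ± 0.60 (SE), or 17.7-fold (DESeq2 adjusted p = 6.22e-09, edgeR adjusted p = 0.00184). Its orthogroup holds 48 gamagrass genes, and reads from near-identical copies may have been divided among them.

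Td00002ba044602 had the next highest fold change. It lies on chromosome 18 (8414675 to 8416906, plus strand) and is paired with maize Zm00001eb406660. The normalised count ranged from 117.1 to 966 under drought (median 333) and from 0 to 194.8 under ample water (median 12.3). Only 1 well-watered plant, replicate 14 again, exceeded the lowest droughted plant. The log2 fold change was 3.61 ± 0.48 (12.2-fold, DESeq2 adjusted p = 1.23e-10, edgeR adjusted p = 0.000541).

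Among genes that fell, Td00002ba033456 showed the clearest separation of the named pair. It lies on chromosome 11 (69160480 to 69162112, minus strand) and is paired with maize Zm00001eb042320. Its normalised count was 1.43 to 72.7 in droughted plants (median 21.4) and 0 to 170 in well-watered plants (median 128.4). All 16 droughted plants lay below the well-watered median, and 11 of 16 well-watered plants lay above every droughted plant. The log2 fold change was -2.16 ± 0.39 (4.46-fold lower, DESeq2 adjusted p = 1e-05, edgeR adjusted p = 0.00745).

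Td00002ba015133 fell by 2.22 ± 0.75 on the log2 scale but lay close to the threshold (DESeq2 adjusted p = 0.0479). This gene on chromosome 4 (141109920 to 141113213, plus strand), paired with maize Zm00001eb189940, had normalised counts of 0 to 561 under drought (median 31.6) and 0 to 1132 under ample water (median 451.8). The groups overlapped over most of their range. edgeR did not call it (adjusted p = 0.203), and the DESeq2 call was lost in 21 of 32 fits that left out 1 plant (droughted replicates 1, 2, 3, 7, 8, 10, 11, 12, 13, 15 and 16 and well-watered replicates 3, 5, 6, 8, 9, 10, 12, 13, 14 and 15). The other 3 genes stayed called in all 50 settings run, of which 1, without outlier replacement, gave the main fit again. Their log2 fold changes were 3.26 to 5.24 for Td00002ba034236 (4.91 without well-watered replicate 14), 3.26 to 4.32 for Td00002ba044602 and -3.27 to -1.60 for Td00002ba033456. A total of 1412 genes met the rule, 814 higher and 598 lower.

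**Figure D1:**
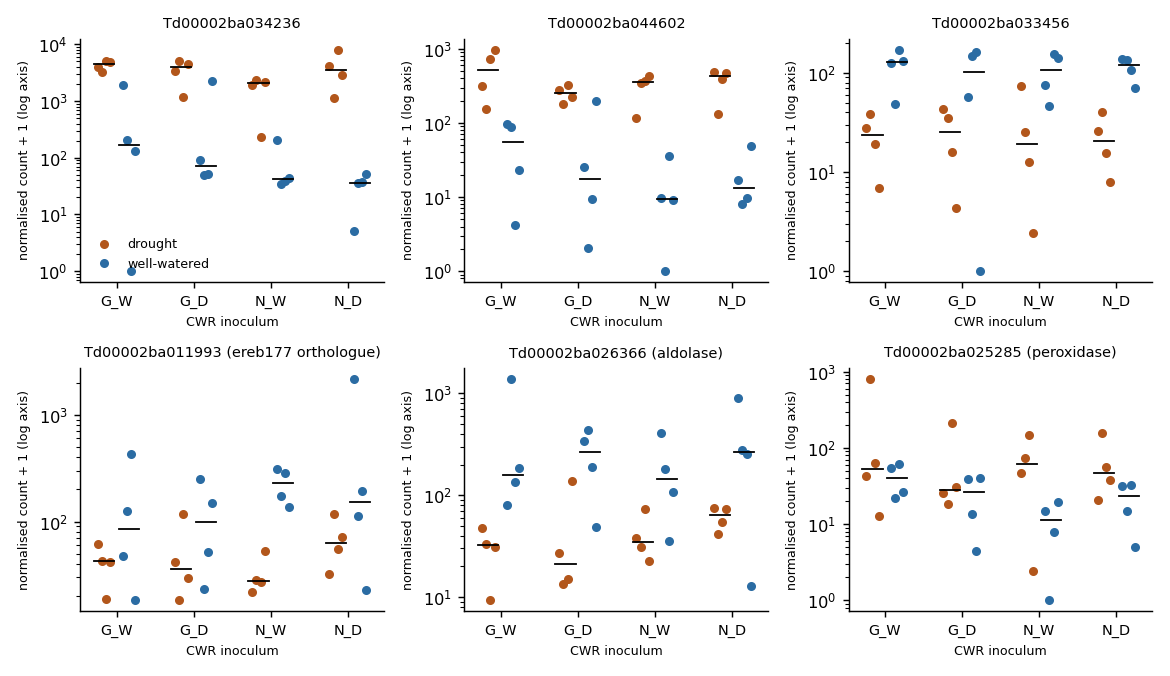
Normalised count plus 1 (log axis) of 6 named genes in each of the 32 plants, by CWR inoculum, with droughted plants in brown, well-watered plants in blue and a line at the median of 4 plants. The upper row shows 2 genes that rose and 1 that fell in every inoculum, and the lower row shows 3 genes annotated in the study, whose groups overlap more and where single plants reach far above the rest.

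The study text gives a function or a maize symbol to a set of genes. It picked some of them on these and the other plants of the series and some on maize plants. Their share of calls is therefore not independent evidence. Through the orthologue table they correspond to 39 gamagrass genes, of which 27 were tested in CWR plants. Of these, 4 rose and 5 fell under drought (33.3% called, against 6.48% of all tested genes), and 2 of the 4 are an overlapping pair that makes up 1 measurement. Their median log2 fold change was -0.07, against 0.00 over all tested genes. edgeR called 5 of the 39.

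Of the 5 genes that the study places in ethylene or ABA signalling of water stress, 3 fell under drought in CWR plants. Td00002ba011993, the orthologue of the maize ethylene response factor gene ereb177 (chromosome 3, 135573787 to 135574757), had normalised counts of 17.5 to 117.8 in droughted plants (median 40.97) and 17.3 to 2158 in well-watered plants (median 141). All droughted plants were below the well-watered median, whereas the highest well-watered plant, replicate 3 at 2158, stood far above the next at 431.7. The log2 fold change was -2.35 ± 0.46 (5.11-fold lower, DESeq2 adjusted p = 6.07e-05, edgeR adjusted p = 0.0102), and without that plant it was -1.70. It was not called with limma voom or in the upper plant numbers alone. Td00002ba024351 (chromosome 7, 114252344 to 114255884) fell 1.74-fold, from a median of 841 to a median of 546 (log2 fold change -0.80 ± 0.21, adjusted p = 0.00641), and was not called with limma voom, among libraries with at least 30 M counts, in the lower plant numbers alone or without CWR_N_W.

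The third gene, Td00002ba004498 (chromosome 1, 249021368 to 249021612), overlaps a gene on the other strand, whose reads could not be told apart from its own. Its normalised counts were low in droughted plants (1.98 to 9.43, median 4.16), and in well-watered plants they reached 94.5 in a few plants around a similar median of 5.12. The log2 fold change of -2.10 ± 0.56 passed in DESeq2 (adjusted p = 0.00674) but not in edgeR (adjusted p = 0.0529), and the DESeq2 call was lost without well-watered replicate 3, 6, 9 or 13. The other members, Td00002ba000033 and Td00002ba005402, had log2 fold changes of -1.08 ± 0.57 and -1.12 ± 0.44 and did not pass.

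A gene for L-allo-threonine aldolase, an enzyme that cleaves this amino acid to glycine and acetaldehyde, fell 7.17-fold. Td00002ba026366 (chromosome 8, 29914665 to 29918589) had normalised counts of 8.30 to 136.7 in droughted plants (median 34.6) and 11.9 to 1379 in well-watered plants (median 185). Every droughted plant was below the well-watered median. In log2 terms this was -2.84 ± 0.45 (DESeq2 adjusted p = 2.15e-07, edgeR adjusted p = 0.00192). In the upper plant numbers alone it was -1.28 and not called (adjusted p = 0.147), and in the lower ones it was -3.92. The gene Td00002ba042486 (chromosome 16, 76208331 to 76211060), annotated as a heat shock protein, a class of chaperones, had a log2 fold change of -2.88 ± 0.67 (DESeq2 adjusted p = 0.00123, edgeR adjusted p = 0.0404). Its counts were small in most plants (medians 2.46 under drought and 8.08 under ample water), and 82.3% of them came from 5 plants, with a highest value of 327.02 in well-watered replicate 4. Among the libraries with at least 30 M counts its log2 fold change was 0.090. By inoculum it was -5.71 with CWR_G_W, 0.59 with CWR_G_D, -2.51 with CWR_N_W and -2.57 with CWR_N_D. The call was also lost without CWR_G_W (-1.48), without CWR_N_W (-2.58), with limma voom and in the lower plant numbers alone.

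A peroxidase gene rose, and genes annotated with pathogen defence rose in part. The peroxidase gene Td00002ba025285 (chromosome 8, 846281 to 847678), whose product oxidises phenolic compounds with hydrogen peroxide, ranged from 1.43 to 798 under drought (median 43.98) and from 0 to 60.99 under ample water (median 19.7). Of the droughted plants, 6 of 16 lay above every well-watered plant. Expression was 4.38-fold higher under drought (log2 fold change 2.13 ± 0.53, DESeq2 adjusted p = 0.00313, edgeR adjusted p = 0.0410). Without droughted replicate 5, at 798, the log2 fold change was 1.504, and the gene was not called with limma voom (1.42), among libraries with at least 30 M counts (1.84) or in the lower or upper plant numbers alone (1.99 and 2.18). Td00002ba019413, annotated with pathogen defence (chromosome 5, 166253748 to 166255265), rose by 2.57 ± 0.72 on the log2 scale in DESeq2 (adjusted p = 0.0111) and was not called by edgeR (adjusted p = 0.0993), with 82.5% of its counts in 5 plants. Without droughted replicate 14 its log2 fold change was 1.29, and the call was lost without droughted replicate 11, 12 or 14. By inoculum it was -0.82 with CWR_G_W, 5.32 with CWR_G_D, 2.60 with CWR_N_W and 1.22 with CWR_N_D. The log2 fold change of Td00002ba019413 was 0.28 with 2 surrogate variables and 1.02 without CWR_G_D, and the gene was called in neither. The other annotated defence genes, Td00002ba028085 and Td00002ba031190, had log2 fold changes of 1.56 ± 0.74 and 0.57 ± 0.49 and did not pass.

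The 2 pathogenesis-related genes Td00002ba005375 and Td00002ba005376 had nearly the same counts in every plant and overlap on opposite strands, so they count as 1 measurement. Td00002ba005375 (chromosome 2, 23535634 to 23536814) lay between 0 and 1167 in droughted plants (median 14.5). Among well-watered plants the highest was replicate 4 at 2663, and the other 15 plants lay between 0 and 6.16. The fitted log2 fold change was 3.61 ± 1.14 (DESeq2 adjusted p = 0.0308, edgeR adjusted p = 0.194), and it was 6.62 without that well-watered plant. By inoculum it was -3.15 with CWR_G_W, which holds that plant, 7.20 with CWR_G_D, 7.70 with CWR_N_W and 3.77 with CWR_N_D. The call was lost without droughted replicate 11, 13, 14 or 15 or well-watered replicate 1, 3, 5, 6, 12 or 13, and the sign turned in 2 other settings (given with the processing).

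Nicotianamine synthase makes the metal chelator nicotianamine, from which grasses build the phytosiderophores that take up iron. None of the 4 nas7 orthologues, which lie as overlapping pairs on chromosome 4, received a p value from DESeq2, which gives none to a gene with an outlying count. In Td00002ba015525 the droughted plants lay between 0 and 24.3 except for 1 plant at 2947, and the well-watered plants lay between 0 and 90.3 with a median of 0. In Td00002ba015515 the medians were 3.29 under drought and 3.10 under ample water, and 1 droughted plant reached 1248. The gibberellin oxidase gene Td00002ba033830 (ga20ox7) had a log2 fold change of 1.87 ± 0.80 (adjusted p = 0.147), with medians of 11.95 and 15.2. The tryptophan synthase gene Td00002ba012570 was evenly expressed (682 to 1968 under drought and 947 to 2088 under ample water), with a log2 fold change of -0.20 ± 0.14 (adjusted p = 0.443). Of the 11 mads58, 5 pat3 and 3 ms33 orthologues, 6, 2 and 3 were tested in DESeq2 and none was called. The pat3 orthologue Td00002ba023452, which DESeq2 did not test, had a log2 fold change of 2.29 ± 0.78 (edgeR adjusted p = 0.248).

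Whether CWR plants responded to drought as plants with other inocula did was asked with the 93 live libraries of WEL, SVR and TRI, which share no plant with the CWR comparison. In a separate fit of those plants 6319 of 39448 genes were called (16%), 2776 of them higher (7.04%) and 3543 lower (8.98%). edgeR, with TMM size factors, called 5104 of 34247 (14.9%), 2661 higher and 2443 lower, so the more frequent direction there turned with the method. For 2232 CWR calls (96.7%) the sign was the same in the other sites, against 73.6% of all genes tested in CWR. Of the CWR calls 1638 were also called in the other sites, 1636 in the same direction and 2 in the opposite one. With edgeR in both fits 979 of 989 calls had the same direction, and all 812 that were called in both had 1 direction.

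The genes named so far that were called in CWR had the same sign in the other sites together, but not all were called there. Td00002ba034236 rose by 3.72 ± 0.32 and Td00002ba044602 by 3.46 ± 0.24 on the log2 scale in the other sites, and the log2 fold change of Td00002ba033456 there was -1.61 ± 0.20. Td00002ba015133 did not pass in the other sites (-0.56 ± 0.50, adjusted p = 0.518). The aldolase gene Td00002ba026366 was called there with a smaller value (-1.45 ± 0.28), whereas the ereb177 orthologue Td00002ba011993 (-0.63 ± 0.25, adjusted p = 0.0613), the peroxidase gene Td00002ba025285 (0.46 ± 0.37) and the heat shock gene Td00002ba042486 (-0.26 ± 0.53) did not pass. In the fit of all live libraries, single sites differed in sign for some annotated genes. The log2 fold change of the heat shock gene was 1.36 in WEL, -3.47 in SVR and 2.54 in TRI. That of Td00002ba019413 was -1.51, 1.90 and 2.07 in the same order, and that of Td00002ba005375 was -2.22, 2.16 and 0.91. The difference between CWR and the mean of the other sites was tested directly, and none of the 33 annotated genes that could be tested in it was called.

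**Figure D2:**
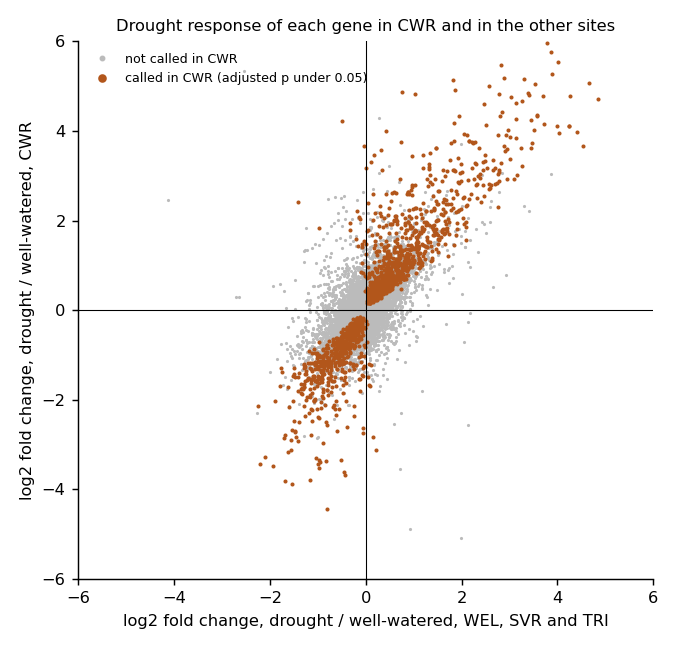
Log2 fold change under drought of each gene with a mean normalised count of at least 50, in WEL, SVR and TRI plants together (x axis) and in CWR plants (y axis), with genes called in CWR in brown and 4 genes beyond the axes left out. Most brown points lie to the lower left and upper right of the origin, as given by the 1888 of 1918 called genes of this abundance that had the same direction.

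Few genes were called as responding differently in CWR plants, which does not show that the others responded alike. The drought response of CWR minus the mean of the other 3 sites was called for 49 of 40638 genes (0.121%, 36 more positive and 13 more negative in CWR) in DESeq2 and for 4 of 35345 in edgeR (0.0113%). Among libraries with at least 30 M counts DESeq2 called 57 genes, of which only 10 were among the 49. Against single sites the count was 46 for WEL (0.104%), 23 for SVR (0.0522%) and 47 for TRI (0.116%) in DESeq2. edgeR called 5 (0.0141%), 3 (0.00849%) and 18 (0.0509%). Of the 49 genes, 30 had more than 50% of their counts in 5 of all live libraries and 13 had fitted values beyond 10. Td00002ba045437 (chromosome 18, 67159781 to 67162809) had the smallest p among the more positive ones. It was at 0 in all 16 well-watered CWR plants and in 7 of 16 droughted ones, and reached 158 in the highest droughted plant. Td00002ba042537 (chromosome 16, 78071494 to 78073764) had the smallest p among the more negative ones and was at 0 in all droughted plants and in 10 of 16 well-watered plants, with a highest value of 18.8. Counts so sparse do not measure a fold.

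The size of the response was read from genes chosen without CWR plants. Over the 2377 genes called higher in WEL, SVR and TRI together with a mean normalised count of at least 50, the median log2 fold change was 0.43 in CWR, beside 0.40, 0.38 and 0.36 in WEL, SVR and TRI. Over the 2308 genes called lower it was -0.38 in CWR, beside -0.44, -0.41 and -0.32. The sign in CWR was the same for 97.7% of the former and 96.3% of the latter. The values of WEL, SVR and TRI come from the plants that chose the genes, so they are a description.

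Among the 4 CWR inocula these genes responded more in plants with inocula conditioned without a host. For the genes that rose elsewhere, the median log2 fold change was 0.54 with CWR_N_W and 0.54 with CWR_N_D, and it was 0.22 with CWR_G_W and 0.38 with CWR_G_D. For the genes that fell elsewhere it was -0.59, -0.45, -0.33 and -0.18 in the same order. Grouped by host, the medians were 0.54 and -0.52 without a host and 0.31 and -0.24 with gamagrass. Grouped by conditioning water, they were 0.49 and -0.31 for drought-stressed and 0.41 and -0.47 for well-watered conditioning.

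**Figure D3:**
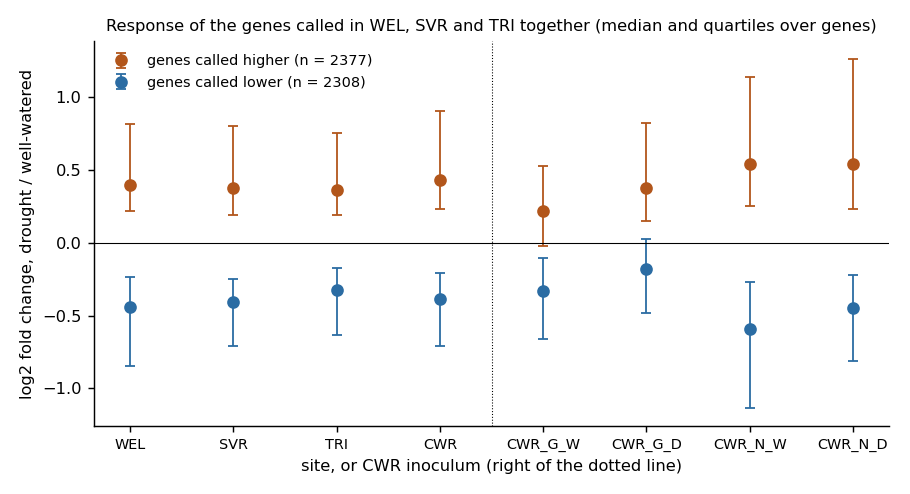
Median log2 fold change under drought (points) with quartiles over genes (bars) for the genes called higher (brown) or lower (blue) in WEL, SVR and TRI together, in each site and in each CWR inoculum (4 droughted against 4 well-watered plants). For the genes called higher the median of CWR (0.43) lies above those of WEL, SVR and TRI. For the genes called lower the median of CWR (-0.38) lies between those of SVR and TRI. The medians of CWR_G_W and CWR_G_D lie closer to 0 than those of CWR_N_W and CWR_N_D.

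A drought index was computed for each plant, as the mean log2 CPM (counts per 1e6 counts of the library) of the 2665 genes called higher in the other sites minus that of the 3096 genes called lower. Droughted CWR plants ranged from 0.99 to 2.67 (median 1.84, mean 1.76 ± 0.51 SD, n = 16) and well-watered plants from -0.44 to 1.70 (median 0.32, mean 0.42 ± 0.56, n = 16). Well-watered replicate 4, inoculated with CWR_G_W, was at 1.70 and lay among the droughted plants, and well-watered replicate 5, inoculated with CWR_G_D, was at 1.25. The remaining 14 well-watered plants lay below every droughted plant.

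Plants with no-host inocula separated fully by the index, and plants with gamagrass-conditioned inocula did not. Without a host, the 8 droughted plants lay between 1.13 and 2.67 and the 8 well-watered plants between -0.15 and 0.79. With gamagrass conditioning, the ranges were 0.99 to 2.28 and -0.44 to 1.70, and 2 well-watered plants exceeded the lowest droughted plant. The difference between droughted and well-watered means was 1.76 without a host and 0.93 with gamagrass. These responses differed by 0.83 in a two-sided permutation test that exchanged the conditioning host within each water treatment (p = 0.0251, 100000 permutations, 32 plants). Without well-watered replicate 4 the difference was 0.69 (p = 0.0455, permutation test). By conditioning water the responses differed by -0.06 (p = 0.871, permutation test). The comparison was chosen after the responses by inoculum had been seen, and the extracts shared between plants were not in the test.

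The index was then compared between conditioning hosts at each water treatment. The mean index of well-watered plants was 0.16 ± 0.32 (SD, n = 8) without a host and 0.68 ± 0.65 (SD, n = 8) with gamagrass, a difference of -0.52 (exact permutation test, p = 0.0597). In droughted plants the means were 1.92 ± 0.51 and 1.60 ± 0.49 (SD, n = 8 each), a difference of 0.32 (exact permutation test, p = 0.219). Neither difference passed on its own. Median depth of the well-watered plants was 19.3 M counts without a host and 25.7 M with gamagrass, and its part in the result was not tested.

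**Figure D4:**
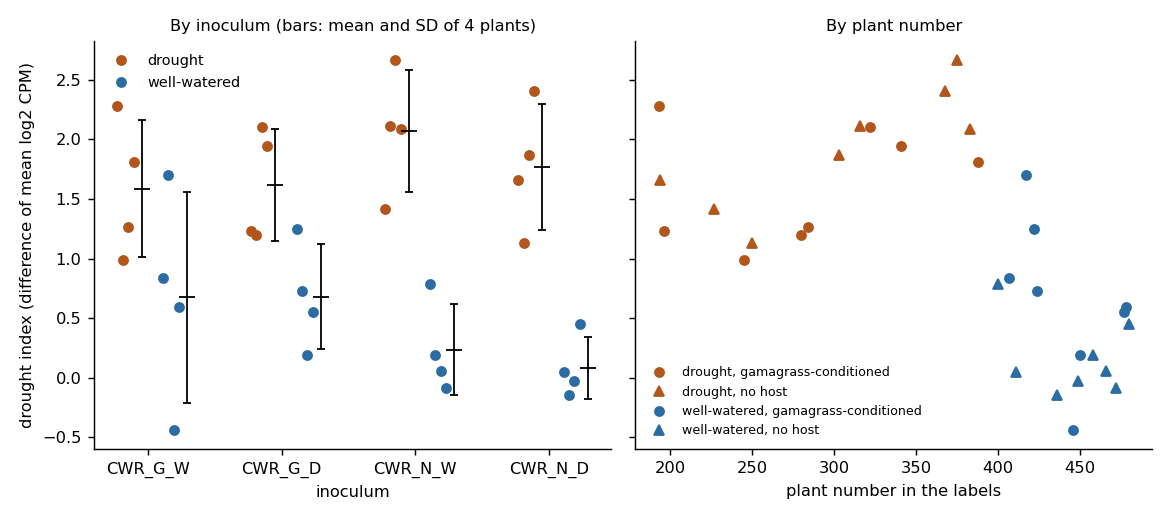
Drought index of each CWR plant (difference of mean log2 CPM between genes called higher and lower under drought in the other sites). The left panel shows the plants by inoculum with the mean and SD of 4 plants, and the right panel by plant number with circles for gamagrass-conditioned and triangles for no-host inocula. The well-watered plants at 1.70 and 1.25 belong to gamagrass-conditioned inocula, and the 8 droughted plants with the upper numbers all lie at or above 1.81.

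More genes were called with no-host inocula. Drought changed 1729 of 34304 tested genes in plants with no-host inocula (5.04%, 982 higher and 747 lower, 8 against 8 plants) and 192 of 41560 in plants with gamagrass-conditioned inocula (0.462%). edgeR called 1.2% and 0.00295% of 33896 tested genes. When each plant was left out in turn, the share called ran from 3.15% to 6.09% with no host and from 0.310% to 0.762% with gamagrass. The lowest shares came without droughted replicate 14 and without well-watered replicate 8, and the highest gamagrass share without well-watered replicate 14. For all 86 genes called with both the sign was shared. Among 1643 genes called only with no-host inocula, 1446 had the same sign with gamagrass conditioning. Complete separation of 8 droughted from 8 well-watered plants was seen for 141 of the 35637 tested genes without a host (0.396%) and for 15 with gamagrass (0.0421%).

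By single inoculum, with 4 against 4 plants, DESeq2 called 511 genes for CWR_N_W (1.45%), 354 for CWR_N_D (1.05%), 99 for CWR_G_W (0.281%) and 80 for CWR_G_D (0.212%). edgeR called 0 genes in each (0%), with 4086, 2704, 1816 and 1716 genes at an unadjusted p under 0.05. The share called by DESeq2 depended on single plants. With CWR_G_W it was 0.934% without well-watered replicate 2 and 0.175% without well-watered replicate 8, and with CWR_G_D it was 0.674% without well-watered replicate 5. With CWR_N_W it was 0.628% without droughted replicate 14 and 2.85% without droughted replicate 4, and with CWR_N_D it was 0.561% without droughted replicate 13. It moved by over 1.5 times without 1 plant in 4 other fits, CWR_N_W without droughted replicate 15 or well-watered replicate 11 or 13 and CWR_N_D without droughted replicate 9. Among the CWR_N_W calls 50.5% rose, and with TMM size factors 62.4% rose.

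Gene by gene, few responses were called as different between conditioning treatments, which does not show that the others were alike. The interaction of drought with conditioning host was called for 44 of 41560 genes (0.106%, 20 more positive and 24 more negative with gamagrass), and that with conditioning water for 18 of 42386 (0.0425%, 11 more positive and 7 more negative after drought-stressed conditioning). edgeR called 0 genes for both (0%), with 1425 and 1350 genes at an unadjusted p under 0.05. Of the 44 genes, 38 had more than 50% of their counts in 5 plants and 20 had fitted values beyond 10. For the 18 genes these numbers were 14 and 12. Without single plants the share called for host ran from 0.0457% (without well-watered replicate 4) to 0.215% (without droughted replicate 11), and that for water from 0.0279% (without droughted replicate 13) to 0.0812% (without droughted replicate 6).

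The genes with the smallest p for these interactions were of this sparse kind. Td00002ba027344 (chromosome 8, 94942419 to 94946093) had the smallest p among the more positive genes for both. It was at 0 in 14 of 16 well-watered plants and reached 276 in 1, well-watered replicate 12 with CWR_N_W, while droughted plants ranged from 0 in 5 plants to 382.9 (median 82.7). Td00002ba036157 (chromosome 12, 104376948 to 104377212), with the smallest p among the more negative genes for host, was at 0 in 13 of 16 well-watered plants, lay between 0 and 503 in droughted plants (median 5.01), and had 84.2% of its counts in 5 plants. Td00002ba014994 (chromosome 4, 135256815 to 135259218), its counterpart for conditioning water, was at 0 in 10 droughted and 8 well-watered plants.

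Few genes were called for conditioning by itself, which does not show that the other genes were unaffected. The additive model called 5 of 42102 genes for conditioning host (0.0119%, 4 higher and 1 lower with gamagrass) and 5 for conditioning water (0.0119%, 1 higher and 4 lower after drought stress), all with more than 50% of their counts in 5 plants. edgeR called 0 genes for each (0%), with 843 and 900 genes at an unadjusted p under 0.05. In a permutational analysis of variance of log2 CPM over 33081 genes, drought took up 6.68% of the variation between the 32 plants (p = 0.0051, 10000 permutations). Conditioning host took up 2.28% (p = 0.925) and conditioning water 2.61% (p = 0.725), both below the 3.23% that a factor without effect takes up on average.

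The drought index was also set against the plant numbers, whose meaning the labels do not state. Among the droughted plants the index was 0.99 to 2.28 (median 1.25) in the 8 plants from plantID_193 to plantID_284 and 1.81 to 2.67 (median 2.09) in the 8 plants from plantID_303 to plantID_388. Over the 16 droughted plants index and plant number correlated with r = 0.56 (permutation p = 0.0262, adjusted over 4 relations p = 0.105) and Spearman's rho = 0.47 (permutation p = 0.0658, adjusted 0.132). When plantID_193 and plantID_194, whose numbers lie farthest from the median number, were left out, r was 0.81. Among the 16 well-watered plants r was -0.41 with plant number (permutation p = 0.117, adjusted 0.156) and 0.48 with total count (permutation p = 0.0592, adjusted 0.118). In droughted plants r with total count was -0.33 (permutation p = 0.217). No relation passed after adjustment. Plants with the lower numbers of each treatment gave 1044 drought calls and those with the upper numbers 3832.

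Called genes with a 1-to-1 maize orthologue mostly rose. Of the genes that form a 1-to-1 pair with a maize gene, 917 of 13762 tested were called (6.66%) and 67.8% of these rose. Of those without an orthologue in the deposited table, 5.14% of 8186 tested were called and 47.3% rose. Of the genes that share their orthogroup with other gamagrass genes and pair with 1 maize gene, 770 of 10832 were called (7.11%) and 49.9% rose. Of the called genes that pair with several maize genes, 66.3% rose where the gamagrass gene was the only one of its orthogroup and 65.2% where it was not. The differences between classes were not tested. The classes differ in abundance too, and its part was not tested. Restricted to a mean normalised count of at least 50, the shares that rose were 68.1%, 53.8% and 53.6% for the first 3 classes.

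Where a copy was called, duplicated genes mostly shared the direction. There were 1351 orthogroups with exactly 2 tested gamagrass genes at separate places. In 173 of them at least 1 copy was called, and in 33 of these both copies were, always in the same direction. Over all tested genes 6.48% were called, a share of single genes and not of pairs. Where 1 copy was called, the other had the same sign in 110 of 140 pairs (78.6%), against 66.3% over all pairs. Copies on the same chromosome shared the sign in 24 of 27 such pairs, and copies on different chromosomes in 76.1% of such pairs. Across 774 pairs with both mean counts of at least 50, the log2 fold changes correlated at r = 0.68, a value across gene pairs that can share reads and plants.

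Some neighbouring genes were called together. Of 31743 adjacent pairs of tested genes that do not overlap, both members were called in 190 (0.599%), and 154 of these had the same direction (81.1%). Over all tested genes 6.48% were called and 57.9% of the calls were higher. These are shares of single genes and give no direct baseline for pairs. Whether neighbours were called together more often than other genes was not tested. There were 21 runs of at least 3 adjacent genes called with 1 sign, of which 5 rose and 16 fell, and they held 72 genes in all. In the other sites 71 of the 72 had the same sign and 51 were called in that direction (70.8%), close to the 70.9% of all CWR calls that were called there. In 3 runs no gene was called in the other sites.

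Both longest runs held 5 genes. In the one on chromosome 4 (24546724 to 24645776 of the haplotype A assembly) all 5 genes were of 1 orthogroup and had log2 fold changes of -3.16 to -1.94. Their summed normalised count was 43.5 to 2286 in droughted (median 207) and 47.8 to 15849 in well-watered plants (median 415), so the groups overlapped over most of their range and reads may be shared among the copies. A run of 4 genes without maize orthologue on chromosome 5 (66621502 to 66720305) had log2 fold changes of -3.134 to -2.999, with a summed count of 1.63 to 34.8 under drought (median 7.93) and 2.42 to 352 under ample water (median 99.2). On chromosome 1 (99960645 to 100366867) 4 genes of different orthogroups rose by 0.51 to 1.78 on the log2 scale. Their summed count was 2665 to 9958 in droughted (median 6875) and 1589 to 7289 in well-watered plants (median 2559).

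Genes on scaffold 66 fell far more often than genes elsewhere. This sequence of about 24.6 Mb, not placed on a chromosome, carries annotated genes of which 37.4% have a maize orthologue against 71.5% of all genes. Of its 274 tested genes 44 were called (16.1%), 4 higher and 40 lower, against 6.48% of all tested genes with 3.75% higher and 2.73% lower. edgeR called 22 of its genes, 20 of them lower. In the other sites 33.6% of its tested genes were called (16% of all genes), again mostly lower, and 43 of the 44 CWR calls had the same sign there. Of the 140 genes with a mean normalised count of at least 50, 83.6% had a negative log2 fold change in CWR plants, against 47.6% of all such genes, and 88.6% in the other sites, against 50.7%. The median log2 fold change of these 140 genes was -0.42 with CWR_G_W, -0.07 with CWR_G_D, -0.39 with CWR_N_W and -0.34 with CWR_N_D.

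The level of scaffold 66 genes per plant, as their mean log2 CPM minus that of all genes, was -1.18 to -0.53 in droughted (median -0.91) and -1.26 to -0.0011 in well-watered plants (median -0.40), so the groups overlapped. Chromosome 13 leaned the same way, with 24 of its called genes higher and 66 lower in CWR (73.3% lower) and 73.9% lower in the other sites. On the other 17 chromosomes 24.6% to 52.9% of the called genes were lower in CWR. These regions were singled out after their values had been seen.

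**Figure D5:**
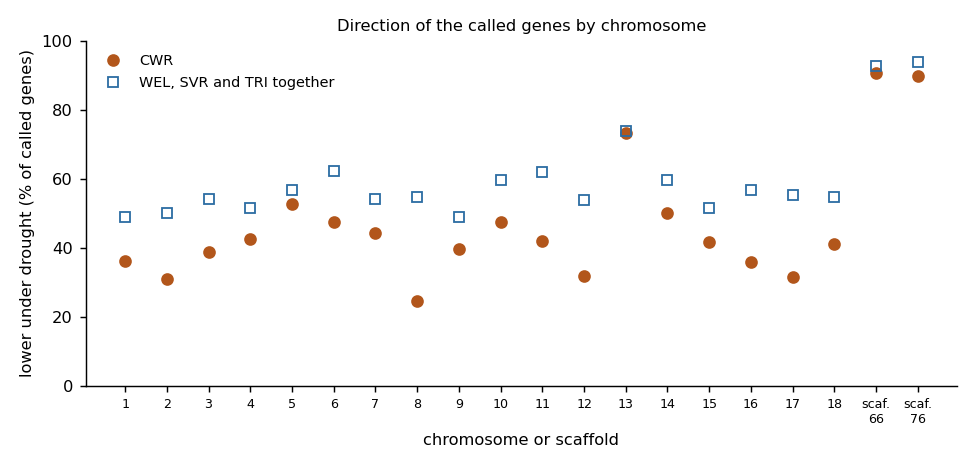
Share of the called genes that were lower under drought, in percent, for each chromosome and for the 2 largest unplaced scaffolds, in CWR plants (filled circles) and in WEL, SVR and TRI plants together (open squares). Chromosome 13 and scaffolds 66 and 76 lie above all other chromosomes in both sets of plants.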

How the data were processed

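Crown-root poly(A) RNA was sequenced in paired reads of directional libraries. After trimming (cutadapt), the authors aligned reads to haplotype A of a gamagrass assembly (HISAT2), dropped duplicates (SAMtools) and counted what fell on each whole gene span (featureCounts). The deposited values are not normalised and are expected counts, in which reads over several genes or places count as fractions (14.0% of CWR values were not whole, tolerance 1e-06). The command names paired input but sets neither strand nor the counting of read pairs, so mates were apparently counted singly. Of the genes, 7212 overlap a gene on the other strand. A deposited OrthoFinder table pairs 32785 of 45865 genes with maize.

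Counts were rounded to whole numbers. Drought was tested with DESeq2 1.42.0 (Wald test) in the 32 CWR libraries with conditioning host and water as covariates, after the study's model. Interactions, 8 cells of inoculum and water, and sites (all live libraries) had their own DESeq2 models. edgeR 4.0.16 with TMM, limma voom 3.58.1, other filters, depths, covariates, 2 surrogate variables (sva 3.50.0) and sets of plants were alternatives, and the tests were tried on simulated counts. Apart from PERMANOVA, which tests the upper tail of its statistic, p-values are two-sided. They measure the spread between plants. Droughted and well-watered plants of 1 inoculum may have shared an extract, and such pairs were not modelled. Genes were called at an adjusted p under 0.05. Log2 CPM used a prior count of 1, and PERMANOVA used vegan 2.7.1 in R 4.3.3.

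The genes named were, by rule, the 2 with the highest and the 2 with the lowest fold change of those called with a mean of at least 50, the same direction in all inocula and at most 50% of counts in 5 plants, then the genes that the study text annotates, with their orthologues, and the smallest p each way for interactions and sites. The plants, lists and rule were chosen with earlier results of these data known, and the tests of the drought index, scaffolds, runs and pairs after further values had been seen. The labels describe gamagrass throughout, whereas the series text once names maize.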

Additional observations from a re-analysis of the deposited data

Results flagged for a closer look

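Among the 13 genes tested for them, single plants stood far above the other 3 plants of their inoculum and water treatment in 22 of the groups of 4 (8 groups per gene), and in none of 8 groups for the drought index. The rule flags about 1 in 20 groups of normally distributed values. Normalised counts are skewed towards high values, so that rate does not hold for the genes and no excess can be read from it. The overlapping pair Td00002ba005375 and Td00002ba005376 was entered as separate genes.

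The normalised count of Td00002ba034236 in 1 well-watered plant was 2234 with CWR_G_D, 1933 with CWR_G_W and 206 with CWR_N_W, and that of Td00002ba044602 was 194.8 in 1 well-watered plant with CWR_G_D. Td00002ba015133 reached 195.4 in 1 droughted plant with CWR_G_W. Among genes annotated in ethylene or ABA signalling, Td00002ba011993 (ereb177) stood at 2158 in 1 well-watered plant with CWR_N_D, and Td00002ba024351 at 987 in 1 droughted and 3531 in 1 well-watered plant with the same inoculum. Td00002ba004498 stood at 77.3, 88.6 and 94.5 in 1 well-watered plant each with CWR_G_D, CWR_N_D and CWR_N_W.

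Among defence genes, Td00002ba019413 stood at 6604 in 1 droughted plant with CWR_G_D, at 1860 in 1 with CWR_N_W and at 217 in 1 well-watered plant with CWR_N_W. The peroxidase gene Td00002ba025285 stood at 214 and 798 in 1 droughted plant each with CWR_G_D and CWR_G_W. The overlapping pair Td00002ba005375 and Td00002ba005376 stood at 5.44 in 1 well-watered plant with CWR_G_D and at 2663 in 1 with CWR_G_W. The aldolase gene Td00002ba026366 stood at 136.7 in 1 droughted plant with CWR_G_D and at 1379 in 1 well-watered plant with CWR_G_W.

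A tested difference between groups was seen in 4 results. DESeq2 called 44 genes for the interaction of drought with conditioning host, 18 for that with conditioning water and 49 for the drought response of CWR minus that of the other sites. In the same order edgeR called 0, 0 and 4 genes. The drought index responded by 0.83 more with no-host than with gamagrass-conditioned inocula (permutation test, p = 0.0251). That comparison was chosen after the responses by inoculum had been seen.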

How the results depend on the processing

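No paired analysis was possible because the labels number no plants across treatments and do not say which plants shared an extract. The 2309 drought calls became 989 with edgeR, 622 with limma voom, 469 among libraries with at least 30 M counts, 1044 and 3832 for the lower and upper plant numbers, 775 without CWR_N_W and 961 without CWR_N_D. In the other 11 settings the count stayed within 1.5 times. The setting without outlier replacement is among these and gave the main fit again, so it is no separate check. Leaving out 1 plant gave 1695 to 2849 calls. The smaller settings hold fewer plants, and the cause of the other changes was not tested.

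edgeR called 0 genes for both interactions, both conditioning effects and each inoculum, and of tested genes 0.00295% with gamagrass, 1.2% with no host, 0.0113% for CWR against the other sites, and 0.0141%, 0.00849% and 0.0509% against WEL, SVR and TRI. With a filter before the fit the share called was 0.0238% for conditioning water by drought, 0.00917% each for conditioning host and water, 0.0312% against SVR and 0.0868% against TRI. Libraries of at least 30 M counts gave 0.130% against SVR. With plant number as a covariate with a slope per water treatment, the shares were 0.254%, 0.353%, 0.182% and 0.272% for the other sites together, WEL, SVR and TRI. The DESeq2 counts between sites also moved by a few genes between runs that differed only in the rounding of the linear algebra library, so they are not exact to the gene. Leaving out 1 plant gave 0.0457% to 0.215% for host by drought, 0.0279% to 0.0812% for water by drought, 0.310% to 0.762% with gamagrass, 3.15% to 6.09% with no host, 0.175% to 0.934% for CWR_G_W, 0.149% to 0.674% for CWR_G_D, 0.628% to 2.85% for CWR_N_W, 0.561% to 1.35% for CWR_N_D, and 0.69 to 0.99 for the index difference. The share for host moved by over 1.5 times without droughted replicate 3, 11 or 13 or well-watered replicate 1, 4, 5, 11 or 12.

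Leaving out 1 plant gave log2 fold changes of 3.96 to 4.91 for Td00002ba034236, 3.49 to 3.99 for Td00002ba044602, -2.62 to -2.02 for Td00002ba015133 and -2.40 to -2.07 for Td00002ba033456. Those of Td00002ba005375 and Td00002ba005376 turned to -0.56 in the fit of all live libraries and to -0.87 for the lower plant numbers, that of Td00002ba019413 to -0.17 for the lower plant numbers, and that of Td00002ba042486 to 0.090 among libraries of at least 30 M counts. The edgeR fits of the responses by conditioning host, and the fits of interactions, inocula and index without 1 plant, were chosen after seeing the data. Well-watered libraries were shallower, so low counts there carry more counting error.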
